A study of Mus musculus with 8 samples.

Results

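Hepatocyte chromatin at 96 h after partial hepatectomy (PHx) was compared with that at 72 h, using 4 of the 8 bulk ATAC-Seq libraries of the series: 2 libraries at 72 h and 2 libraries at 96 h. ATAC-Seq uses the Tn5 transposase to cut and tag accessible DNA, so that a peak marks a stretch where nucleosomes leave the DNA exposed. All mice were C57BL/6 by the labels (C57BL/6J in the study's methods) on normal diet, male in the study's text, and labelled as 10 to 12 weeks old, where the methods give a slightly younger range. Hepatocytes were obtained by collagenase perfusion of the liver. No transgene or mutation was carried by any group, and the 72 h and 96 h groups shared the operation and differed by the time since it. The members were chosen by their time labels, with earlier results of these data known. The data were each library's own peak list, with no read counts.

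After PHx the remaining liver restores its mass largely through division of mature hepatocytes, which leave quiescence under cytokine and growth factor signals, replicate their DNA and divide while the organ keeps up its metabolic work. Immediate early factors such as the AP-1 proteins act at the start of this response, replication and mitosis genes follow, and proliferation declines as mass is recovered. Hepatocyte identity rests on enhancers bound by factors such as HNF4A, FOXA, C/EBP and HNF1, many of which lie far from the promoters they act on. The comparison asks whether accessibility still differed between the later points of this course, and at which genes.

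Each list was collapsed to distinct intervals and every interval was given a percentile by its −log10 p within its own list, in which 100 is the strongest and 0 was assigned where a list held no interval. Intervals that overlapped by at least 1 bp were merged over the 4 lists into 248404 regions, of which 124396 lay in at least 2 lists and were compared. A region was called higher at 96 h if both 96 h libraries exceeded both 72 h libraries by at least 10 percentile points, and lower in the opposite case. The lists were not equally strong. The 72 h libraries held 140311 and 154577 distinct intervals (replicates 1 and 2), and the 96 h libraries held 144736 and 127561. In 96 h replicate 2 the −log10 p at rank 50000 was 8.29, against 13.96 to 14.79 in the other 3 lists, and 27.5% of the compared regions were absent from it, against 10.8% to 14.2%. The deposited name of 72 h replicate 2 lacks the sequencing lane tag that the other 3 carry, and whether it was sequenced separately is not given in the sources used here.

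The sequences below show what the leading distal regions hold, those with the widest gap between time points more than 1 kb from any start site. Each is 120 bases of GRCm38.p6 around the strongest summit, plus strand, with matches to a searched motif in capitals. The first pair was higher at 96 h, within intervals at chr11:100541049-100541294 (intergenic, 4454 bp from the start of Ttc25) and chr8:125574368-125574597 (intergenic, 4668 bp from Sipa1l2).
Ttc25 region: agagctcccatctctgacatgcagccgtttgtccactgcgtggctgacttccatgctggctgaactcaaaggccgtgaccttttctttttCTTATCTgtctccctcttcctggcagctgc
Sipa1l2 region: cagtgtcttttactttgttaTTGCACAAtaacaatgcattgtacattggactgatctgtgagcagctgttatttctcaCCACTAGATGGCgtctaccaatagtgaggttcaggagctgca
The second pair was lower at 96 h, at chr17:29846299-29846564 (in a coding exon, 41450 bp from the start of Mdga1) and chr10:4965585-4966289 (intron, 103067 bp from Syne1).
Mdga1 region: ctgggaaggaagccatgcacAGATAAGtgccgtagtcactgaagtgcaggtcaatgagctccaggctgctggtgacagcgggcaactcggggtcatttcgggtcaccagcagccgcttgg
Syne1 region: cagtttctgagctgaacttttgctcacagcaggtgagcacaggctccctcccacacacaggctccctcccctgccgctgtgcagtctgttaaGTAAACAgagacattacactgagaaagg
Capitals mark a GATA match (minus strand, CTTATCT) in the Ttc25 region, a C/EBP match (TTGCACAA) and a CTCF match in the Sipa1l2 region, a GATA match (AGATAAG) in the Mdga1 region and a FOXA match (minus strand, GTAAACA) in the Syne1 region. The last set lay in all 4 lists and was among the regions with the widest gaps there, at chr12:104448204-104448581 (intergenic, 24980 bp from Gsc, higher at 96 h) and chr4:148513409-148514043 (intron, 13428 bp from Angptl7, lower at 96 h).
Gsc region: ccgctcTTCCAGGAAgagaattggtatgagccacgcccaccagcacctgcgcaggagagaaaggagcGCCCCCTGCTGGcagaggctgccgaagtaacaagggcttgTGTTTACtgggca
Angptl7 region: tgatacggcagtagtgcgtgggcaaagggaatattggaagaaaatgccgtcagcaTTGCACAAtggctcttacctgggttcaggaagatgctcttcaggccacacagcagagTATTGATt
The Gsc region held a STAT, a CTCF and a FOXA match, and the Angptl7 region a C/EBP and an HNF6 match. The names give the nearest coding start site, which need not be the gene that a region acts on. An intron or exon is one of any annotated gene, and not always of the gene named.

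The 72 h and 96 h libraries were not set apart from each other as time points. Over the 124396 compared regions 3948 were higher at 96 h (3.17%) and 10168 were lower (8.17%), 14116 in all. When the same rule was applied to the 2 other ways of joining the 4 libraries into pairs, it called 13794 regions for replicates 1 against replicates 2, and 16353 for 72 h replicate 1 with 96 h replicate 2 against the remaining pair. In an exact permutation test over these 3 arrangements the time points gave p = 0.667 (two-sided), where 0.333 is the smallest p that 2 against 2 libraries allow. Even a complete separation could therefore not pass a threshold of 0.05. The study's methods describe several mice per time point and independent replicates, but the labels do not tie the 2 libraries of a time point to separate animals, and p measures the spread between these libraries only. In bulk nuclei, fewer cells with a region open and less opening in each cell cannot be told apart.

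The excess of lower over higher calls differed between scales. The calls were repeated on the 72706 regions present in all 4 lists, with percentiles taken among those regions. There, 2725 regions were higher at 96 h (3.75%) and 2733 were lower (3.76%), so that higher calls made up 49.93% of the total, against 27.97% on the whole-list scale. The total of 5458 was below both other arrangements (6388 and 6185, exact permutation p = 1, two-sided).

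**Figure D1:**
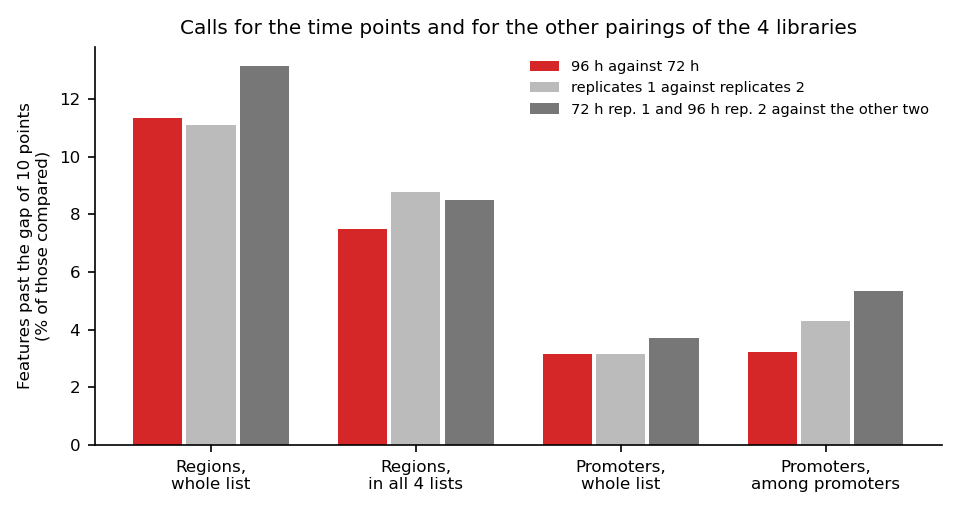
Share of compared regions or promoters past the gap of 10 percentile points (y axis, percent) for 96 h against 72 h (red) and for the 2 other ways of pairing the 4 libraries (grey), on 4 scales. On the 3 scales other than the whole-list regions the red bar is the lowest, and for whole-list regions it lies between the grey bars, at 14116 against 13794 and 16353 regions.

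Pairwise likeness gave the same picture. The Spearman correlation of percentiles over the 124396 regions was 0.827 between the 72 h libraries and 0.764 between the 96 h libraries. Across time points it was 0.837 for the replicates 1, 0.821 for 72 h replicate 2 with 96 h replicate 1, 0.777 for 72 h replicate 1 with 96 h replicate 2 and 0.765 for the replicates 2. Thus 72 h replicate 1 was closest to a 96 h library, and the 3 lowest values all involved 96 h replicate 2. The mean over pairs of one time point minus that over pairs of different times was −0.00417, against 0.00321 and 0.000954 for the other arrangements (exact permutation p = 1, one-sided). These correlations are descriptions over regions, which share a library and its depth.

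Many of the called regions were weak peaks, and nearly as many were seen at either 72 h or 96 h alone as at both. Of the regions higher at 96 h, 48.6% were absent from both 72 h lists, and of those lower, 47.5% were absent from both 96 h lists. The median percentile of the weaker of the 2 high libraries was 37.1 for higher and 39.2 for lower regions. Only 110 higher and 331 lower regions reached the 80th percentile in both libraries of the stronger time point, and 0 of these were absent from both lists of the other. Just inside the threshold, with gaps of 10 to 11 points, lay 320 higher and 737 lower regions, and just outside it, with gaps of 9 to 10, lay 325 and 814. Called regions were also short, with a median length of 352 bp for higher and 376 bp for lower regions against 485 bp for all compared regions. Among peaks above the 80th percentile in both libraries of a time point, none was thus missing from both libraries of the other.

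The region with the widest gap toward 96 h lay near Ttc25, a ciliary dynein docking protein. It was in neither 72 h list and stood at percentiles 68 and 70.7 at 96 h, with fold enrichments over local background of 6.48 and 6.41. The same stretch was listed at 48.9 and 0 in the 0 h libraries and at 50.2 and 70 in the 48 h libraries, so it was listed in 3 of the 4 earlier libraries. The Sipa1l2 region was at 67.2 and 65.8 at 96 h and absent at 72 h, and was listed in 1 of 2 libraries at 0 h (52) and at 48 h (60.1). The remaining 4 of the leading regions higher at 96 h lay near Omp (intron, 70.2 and 65.5), Ostf1 (intron, 73.4 and 63.5), Serpina12 (exon outside coding sequence, 63.1 and 67.9) and Epha5 (intron, 62.1 and 73.4). Serpina12 encodes the serpin vaspin, and its region stood at 74.8 and 64.7 at 48 h.

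In the opposite direction the Mdga1 region was at 77.5 and 83.1 at 72 h and in neither 96 h list. Its percentiles at 0 h were 66.1 and 71.3, so the 96 h lists lacked a region that both 0 h lists held. The Syne1 region, near the gene of the nuclear envelope protein nesprin-1, stood at 72.4 and 79.6 at 72 h, with fold enrichments of 8.3 and 9.34. It was weak or absent at 0 h (18.6 and 0) and intermediate at 48 h (53.1 and 59.9). A region in an intron near Scnn1a, which encodes a subunit of the epithelial sodium channel, was at 65.5 and 81.4 at 72 h, at 63.1 and 59.4 at 0 h and at 43.1 and 78 at 48 h, and was missing only from the 96 h lists. Those near Tent4a (intergenic, 70.3 and 69), Atl2 (intron, 65.6 and 68.6) and Lin28a (intron, 65.2 and 66.2) had been listed in 1 library at each of 0 h and 48 h. Lin28a encodes an RNA-binding protein that blocks maturation of let-7 miRNAs.

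Regions held by every list gave gaps without any missing values. Near Gsc, a homeobox gene, percentiles were 53.9 and 54.9 at 72 h and 86.5 and 83.7 at 96 h, and fold enrichment was 4.94 and 4.82 against 12.4 and 9.44. Among the 72706 regions these values correspond to percentiles of 21.2 and 17.5 against 73.2 and 71.6. The 0 h libraries lay between (69.1 and 57.3), while the 48 h libraries differed from each other (74.7 and 0). Near Gpc5, a glypican gene, the percentile was 28.7 and 39.7 at 72 h and 76.9 and 89.8 at 96 h. Near Angptl7 a region in an intron stood at 75.3 and 84 at 72 h and at 40 and 1.79 at 96 h, where the 2 replicates were far apart. Near Xylt1, which encodes a xylosyltransferase of proteoglycan synthesis, the values were 79.9 and 82.5 against 30.8 and 37.1. An intron region 240662 bp from the start of Itpr2, an IP3 receptor gene, stood at 85.9 in both 72 h libraries and at 55.2 and 56.2 at 96 h. These shared regions were selected for their gaps after the values were seen, and they are given as descriptions.

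**Figure D2:**
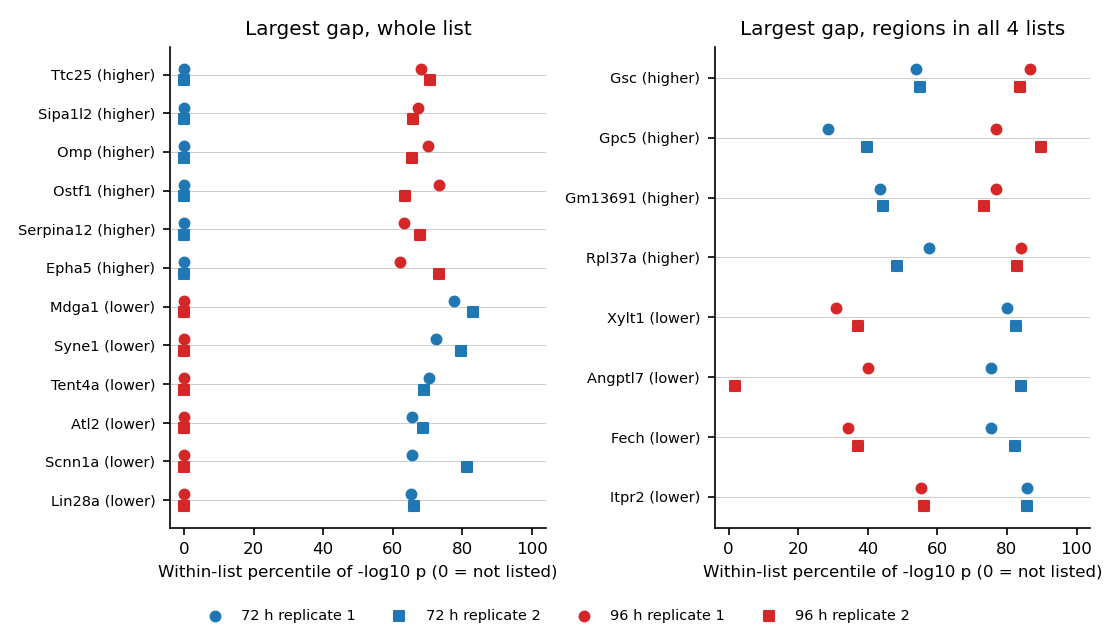
Within-list percentile (x axis, 0 = not listed) of the leading distal regions in each 72 h (blue) and 96 h (red) library, circles for replicate 1 and squares for replicate 2, named by the nearest coding start site. The left panel shows regions listed at either 72 h or 96 h and not at both, and the right panel regions in all 4 lists. In the right panel the Gsc region moves from 53.9 and 54.9 to 86.5 and 83.7 and the Itpr2 region from 85.9 to 55.2 and 56.2.

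Promoters were compared in the same way, by the strongest region of each gene. A merged region within 1 kb of a start site was found in at least 2 lists for 15156 of 21938 protein-coding genes, and the median promoter percentile was 88.7, 89.6, 89.2 and 89.6 in 72 h replicates 1 and 2 and 96 h replicates 1 and 2. By the rule above 122 promoters were higher at 96 h (0.805%) and 356 were lower (2.35%), 478 in all, against 481 and 565 in the other arrangements (exact permutation p = 1, two-sided). With percentiles taken among promoters, 219 were higher (1.44%) and 268 lower (1.77%), and the total of 487 was again below the other arrangements, at 651 and 812 (p = 1 by the same exact test).

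The promoters with the widest gaps were weak peaks, with no percentile above 68.9 in any of the 4 lists. D430019H16Rik was listed in neither 72 h library and stood at 59.6 and 51.5 at 96 h. Marcks, a protein kinase C substrate at the actin cortex, stood at 51.1 and 55.2 at 96 h and in neither 72 h list, and its region at chr10:37138902-37139057 spanned the start site. The 120 bases around the summit, on the upstream side of the start (plus strand, GRCm38.p6), are shown because they hold the SP/KLF match GGGCGGGG, in capitals.
Marcks promoter: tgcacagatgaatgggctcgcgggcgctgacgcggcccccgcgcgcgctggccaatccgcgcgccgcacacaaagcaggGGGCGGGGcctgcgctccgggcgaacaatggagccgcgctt
Adgrl4, an adhesion receptor of endothelial cells, was absent at 72 h and at 49.3 and 68.9 at 96 h. Dvl2, a transducer of Wnt signals, was absent at 72 h and at 34.7 and 53.5 at 96 h, and was listed in both 0 h libraries (39.6 and 31.6). The other 4 were Tmem132e, Rtl3, Fbxo40 and Rgs4, with percentiles from 36.7 to 62.2 at 96 h and from 0 to 8.74 at 72 h. Lower at 96 h were the promoters of Pcdh11x (55.4 and 60.1 at 72 h, 2.18 and 0 at 96 h), a protocadherin gene, and Pdzph1 (53.9 and 51.2, then 0 and 0). Lrg1, a secreted glycoprotein of the acute phase response, went from 48.9 and 59.3 to absent in both 96 h lists, and had been listed at 28.5 and 45.3 at 0 h. Ranked by fold enrichment its 72 h values were 17.7 and 15.9. Ccl7, a monocyte chemokine, went from 43.4 and 44.5 to absent. Pou4f3, En1, Dock11 and Ptprq completed this group, with percentiles from 43.4 to 67.9 at 72 h and from 0 to 7.72 at 96 h. Of these 16 promoters, D430019H16Rik and Pcdh11x kept their call with percentiles taken among promoters.

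Most hepatocyte markers were present throughout, Kupffer cell and lymphocyte markers were nearly absent, and some markers of the remaining liver cells were listed. Of 15 hepatocyte markers 14 were compared and 13 lay in all 4 lists, with median promoter percentiles of 65.2 and 68 at 72 h and 71.3 and 67.7 at 96 h. None was called. Fgb was missing from 72 h replicate 2, and of the 4 lists Alb was in that of 96 h replicate 1 alone (58.7), although both 0 h libraries held it (72.3 and 50). Of the 7 Kupffer cell markers only Clec4f could be compared (32.7 and 13.4 against 0 and 26), while Cd5l, Adgre1, Csf1r, Marco, Vsig4 and C1qa were in none of the 4 lists. No promoter of the 5 lymphocyte markers lay in 2 lists. Of the 7 endothelial markers 5 were compared, with a median of 54 and 55.9 at 72 h against 36.7 and 41 at 96 h, and its members differed in direction. The corresponding counts were 3 of 7 for stellate cell and 4 of 5 for cholangiocyte markers.

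Among the listed genes of liver function and regeneration few promoters moved. Of 253 genes in 20 lists 231 were compared, and 2 were higher (0.866%) and 5 lower (2.16%) at 96 h, which is close to the shares over all promoters (0.805% and 2.35%). Calls fell in 6 lists and none in the remaining 14. With percentiles among promoters, Junb and Cdc45 were higher and no listed promoter was lower, so that Junb was the only listed gene called on both scales. Without a minimum gap, 14.1% of all promoters were higher and 15.7% lower at 96 h with no overlap between the groups, and among the 231 listed promoters these shares were 13.9% and 10.8%. Counts without overlap in single lists are to be read against these shares.

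Junb encodes a subunit of AP-1 and is an immediate early gene of the response to PHx. Its promoter region stood at 40.6 and 22 at 72 h and at 76.2 and 64.9 at 96 h, and the groups did not overlap. Fold enrichment was 1.83 and 1.52 at 72 h and 2.66 and 2.73 at 96 h, and ranked by it the mean difference was 13.3 points in place of 39.3. At 0 h the percentiles were 61.3 and 29.9 and at 48 h 44.4 and 0, so the 96 h values were the highest of the 8. Among promoters the region went from percentiles of 8.64 and 3.28 to 26.8 and 19.9, still in the lower part. Of the 12 compared genes of the immediate early and AP-1 list no other was called, and Jun was near the top of every list (99.8, 99.8, 99.9 and 97.7). Fos stood at 56.1 and 81.5 at 72 h and at 59.2 and 53.5 at 96 h, with overlap.

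Tk1 encodes thymidine kinase, which salvages thymidine for DNA synthesis. Its promoter was in neither 72 h list and at 33.1 and 29.8 at 96 h, after 25.1 and 61.9 at 48 h, and stood at 33.4 and 0 in the 0 h libraries. Ranked by fold enrichment it reached 8.28 and 12 at 96 h and was no longer called. The other 17 replication genes were not called on the whole-list scale. Cdc45, a part of the replicative helicase, stood at 82.9 and 83.4 at 72 h and at 88.7 and 92.8 at 96 h, a difference of fewer than 10 points that passed only with percentiles among promoters (37.7 and 35.6 against 48.9 and 59.2). The 18 mitosis genes had medians of 92.4 and 90.7 at 72 h, against 89.8 and 91.7 at 96 h. Of these, 2 were higher and 2 lower without overlap, near the background, and none was called. Those higher were Foxm1, a transcription factor of mitotic genes (83.5 and 89.4, then 95.8 and 91.1), and Ect2, needed for cytokinesis (75.2 and 70.7, then 79.4 and 89.2). Those lower were Top2a, a DNA topoisomerase gene (75.9 and 73.9, then 72.7 and 68.9), and Cdk1, the mitotic kinase (94.6 and 93.7, then 88.6 and 93.3).

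Cyp1a2 encodes a cytochrome P450 that metabolises drugs and is made by hepatocytes around the central vein. Its promoter stood at 62.8 and 63.9 at 72 h and at 32.5 and 17.9 at 96 h, the widest gap among the listed genes that were lower. Fold enrichment was 5.15 and 5.41 at 72 h, against 2.7 and 2.8 at 96 h. The region was absent from both 48 h lists and at 59.2 and 63.7 at 0 h, so the 72 h values were near those at 0 h and the 96 h values lay between 48 h and 72 h. None of the other 11 pericentral genes was called, and the list medians were higher at 96 h without overlap (76 and 80.8 against 81.7 and 81.6). In this list of 12 compared, 2 genes were higher without overlap (Cyp2e1 and Oat) and 2 lower (Cyp1a2 and Lgr5). The shares over all promoters were 14.1% and 15.7%. Glul, which encodes glutamine synthetase, was at 85.1 and 90.6 and then at 85.3 and 92.7, and Cyp2e1 at 42.1 and 43.2 and then at 53.3 and 49.5.

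Saa3, an acute phase gene, went from 58.1 and 71.6 at 72 h to 28.9 and 47.3 at 96 h, below the 48 h values of 68.8 and 75. Its relatives Saa1 and Saa2 were each in 2 of the 4 lists, and their groups overlapped. Of the 13 acute phase genes 2 were higher and 1 lower without overlap, next to 14.1% and 15.7% of all promoters. Those higher encode orosomucoids, Orm1 (75 and 58.6, then 76.3 and 82.7) and Orm2 (91.6 and 91.5, then 95.6 and 93.7), and neither reached the gap. The list medians were 84.1 and 83.8 at 72 h, next to 83.6 and 89.1 at 96 h. In the fetal and progenitor list, Dlk1, a surface protein of hepatoblasts, was at 62.5 and 61.3 at 72 h and at 47.4 and 8.34 at 96 h. The earlier libraries differed between replicates, at 65.5 and 0 at 0 h and at 18.8 and 54.6 at 48 h. Igf2bp3, a fetal RNA-binding protein, stood at 66.3 and 56.2 at 72 h and at 17.4 and 40.1 at 96 h. It was at 40.3 and 0 at 0 h and at 54.3 and 61 at 48 h. Sox4 and Cd24a were also lower without overlap and within the gap. In the opposite direction Igf2, a fetal growth factor, stood at 31.1 and 50.9 and then at 53.2 and 61.3, and Snai1 at 98.5 in both 72 h libraries and then at 98.8 and 99. The list thus held 2 genes higher and 4 lower without overlap among 15 compared, against the same shares of all promoters. Afp could not be compared, and Sox9, a progenitor transcription factor, was at 67.3 and 75 and then at 68.3 and 76.1. The list as a whole had medians of 77.4 and 75.8 at 72 h and 74.9 and 76.1 at 96 h, which overlapped.

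Kdr, the VEGF receptor of endothelial cells, was the last of the lower promoters, at 54 and 71.6 at 72 h and 28.6 and 41 at 96 h. Pecam1 was also lower without reaching the gap (69.4 and 39.7, then 36.7 and 4.41), while Clec4g was higher (84.8 and 79.6, then 91.5 and 86.8). In Stab1 (10.8 and 0, then 47.5 and 0) and Cdh5 (0 and 55.9, then 28.2 and 41.9) the groups overlapped, with higher means at 96 h. Stab2 and Lyve1 were at 0 in all 4 lists. The part that carried-over endothelial nuclei had in the Kdr values was not tested.

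**Figure D3:**
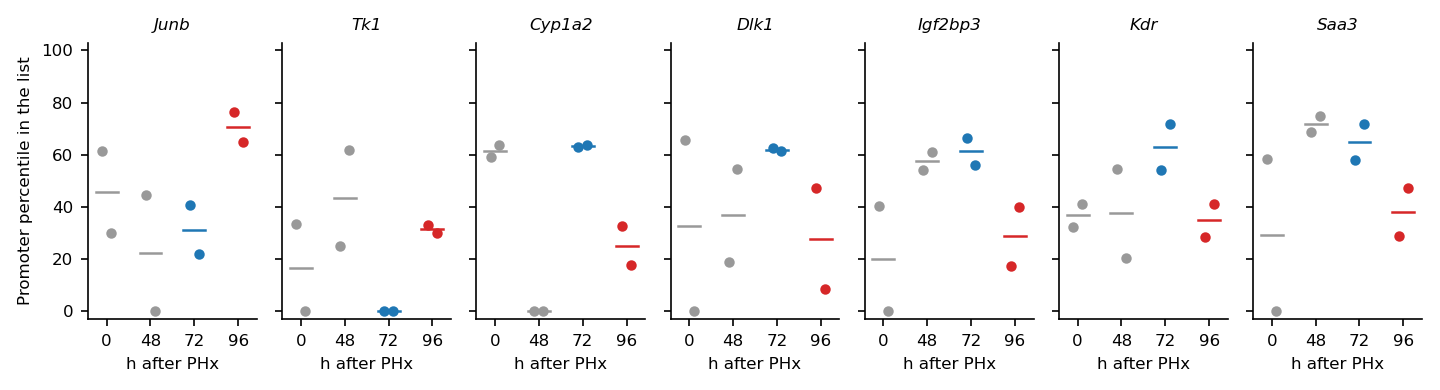
Promoter percentile in the list (y axis, 0 = not listed) of the 7 listed genes called between 72 h and 96 h, in each library (points), by hours after PHx (x axis), with the mean of 2 libraries as a line. Junb at 76.2 and 64.9 and Tk1 at 33.1 and 29.8 exceed their 72 h values at 96 h, and the other 5 genes fall below theirs.

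In the metabolic lists differences were smaller than the gap. Of the 13 genes of fatty acid oxidation 5 were higher without overlap and 1 was lower, next to 14.1% and 15.7% of all promoters. Ehhadh, a peroxisomal oxidation enzyme, went from 77.8 and 82.2 to 84.7 and 92.6. Hadha and Hadhb share 1 promoter region (74.2 and 63.9, then 81.8 and 83.6), so their 2 counts are not independent. The periportal and urea cycle list had medians of 57.1 and 61 at 72 h and 65.5 and 76 at 96 h, with 3 of 13 higher without overlap and 0 lower. One of these was Cps1, the entry enzyme of the urea cycle, at 51.6 and 61 and then at 64.7 and 67. No promoter of either list reached the gap of 10 points. In the lists of bile acid genes and of hepatocyte transcription factors the medians overlapped between the time points.

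**Figure D4:**
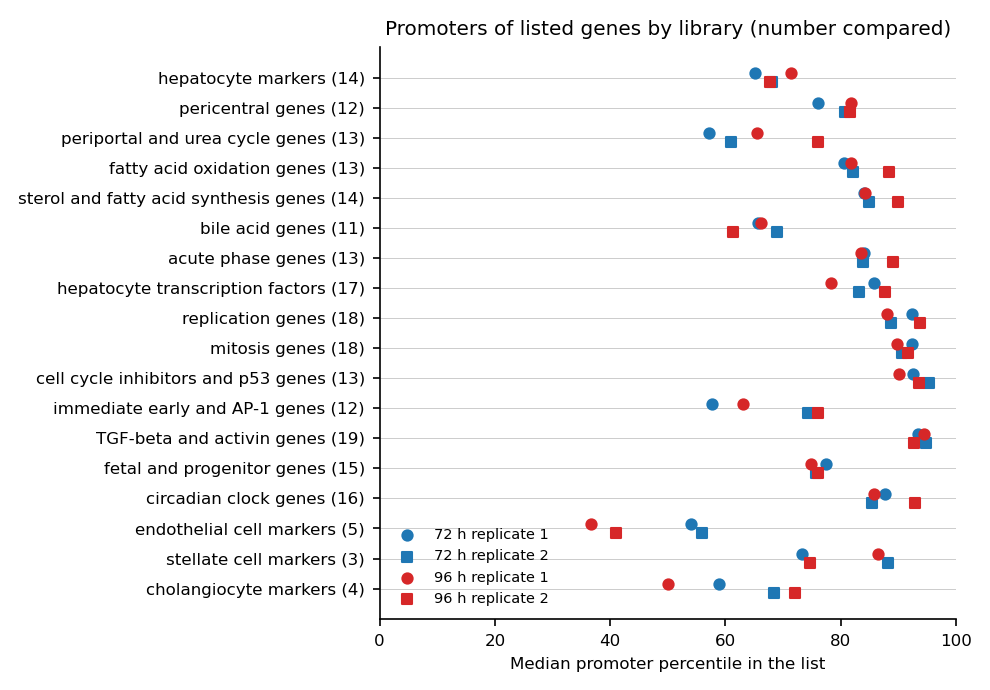
Median promoter percentile (x axis) of each gene list with at least 3 compared members, by library, blue for 72 h and red for 96 h. The periportal list (57.1 and 61 against 65.5 and 76) and the endothelial markers (54 and 55.9 against 36.7 and 41) are among those whose libraries do not overlap.

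Genes with many called regions were next examined, counting regions whose nearest coding start site lay within 100 kb. Calls were spread over 7172 of 17742 genes, and 1345 genes had calls in both directions. The most regions lower at 96 h were near Foxp1, a forkhead repressor, with 14 of 111 regions lower (8.17% of all compared regions were lower) and 3 higher, 12.6% in the lower direction. Near Egfr, the receptor of EGF and TGF-alpha that transmits growth signals to hepatocytes, 9 of 48 regions were lower and 1 higher, but of the 17 regions present in all 4 lists 0 were called in either direction. The median percentile over the Egfr regions was 36.9 and 47.4 at 72 h and 31.1 and 8.68 at 96 h, so 96 h replicate 2 was the low one. Agap1, a GTPase-activating protein for Arf, had 10 of 52 lower and 0 higher, and Shroom3, which shapes the apical actin network of epithelia, had 10 of 57 lower and 2 higher. Among all regions in all 4 lists 3.76% were lower and 3.75% higher. Of such regions 4 of 23 were lower and 1 higher at Agap1, and 6 of 36 lower and 0 higher at Shroom3. At Foxp1 5 of 62 were lower and 0 higher, and at Psd3 2 of 33 were lower and 1 higher. Psd3, an exchange factor for Arf6, had 9 of 66 lower (13.6%) and 1 higher. On the whole-list scale the shares at Foxp1 and Psd3 (12.6% and 13.6%) were thus not far above the 8.17% of all regions. As at Egfr, 96 h replicate 2 had the lowest median at Agap1 (0), Foxp1 (33.6), Psd3 (19.5) and Shroom3 (41.5). The next lowest library stood at 39.3, 53.3, 46.9 and 47.1 there.

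Fewer regions gathered at genes in the higher direction, in which 3.17% of all compared regions were called. Itga9, an integrin subunit gene, had 5 of 25 regions higher and 3 lower. Bach2, a transcriptional repressor gene, had 5 of 50 higher and 4 lower, with 3 higher and 0 lower among its 21 regions in all 4 lists. Magi1, a junction scaffold gene, had 5 higher but 9 lower of 55. Papss1, which makes the sulfate donor PAPS, had 4 of 33 higher and 0 lower, and Atf6, a sensor of endoplasmic reticulum stress, had 4 of 18 higher and 1 lower. Of all regions in all 4 lists 3.75% were higher and 3.76% lower. Among such regions Atf6 had 0 called of 5, and Magi1 had 1 higher and 3 lower of 25. Itga9 had 3 higher and 1 lower of 6, and Papss1 had 2 higher and 0 lower of 24. These genes were chosen by the counts given for them. The largest one-way counts of any gene were 14 in the time comparison, 8 for replicates 1 against replicates 2, and 14 in the remaining arrangement, where Foxp1 again had 14. At least 5 calls of one direction were found at 101, 62 and 168 genes, respectively.

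Classes of sequence and location were compared next, 31 on each scale, by their share among higher minus that among lower regions. For regions in all 4 lists 12 of the 31 reached the smallest p of 0.333 and on the whole-list scale 9 did, and the lowest Benjamini-Hochberg adjusted values were 0.86 and 1 (exact permutation test, two-sided), so no class passed. A motif was looked for on both strands within 100 bp of each summit: TGANTCA for AP-1 (in 8.03% of compared regions), CAAAGTCC for HNF4 (2.45%), TGTTTAC for FOXA (4.68%), TTGCNNAA for C/EBP (12.6%), ATCAATA for HNF6 (3.69%), TTCNNNGAA for STAT (5.47%), CACGTG for the E-box (3.12%), CCGGAAG for ETS (2.43%), CCAATCA for NF-Y (2.7%), GGGCGGGG for SP/KLF (4.54%), GGAATG for TEAD (10.7%), AGATAAG for GATA (2.75%) and GGGANTTCC for NF-kB (0.832%). Longer letters were used for CTCF (9.36%), HNF1 (1.05%) and NRF1 (0.124%). Motifs may overlap one another, and a match is not evidence of a bound site.

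Among regions in all 4 lists, CTCF matches were found in 14.8% of those higher and in 9.15% of those lower at 96 h, against 10.9% of all. CTCF organises chromatin loops. The difference of 5.6 percentage points exceeded those of the other arrangements (1.08 and −4.06, exact permutation p = 0.333, the smallest possible). On the whole-list scale the shares were 7.98% and 7.91%. AP-1 matches were less frequent among higher than among lower regions, at 7.89% against 10.5%, a difference of −2.61 points next to −2.4 and −0.618 (p = 0.333 by the same exact test). On the whole-list scale it was −1.7 next to −1.57 and −1.26. HNF6 matches were in 5.47% of higher and 3.15% of lower regions, but the difference of 2.32 points hardly exceeded 2.27 and 2.3 in the other arrangements. On the whole-list scale it was 2.38 next to 1.62 and 1.24 (exact permutation p = 0.333). For the hepatocyte factors among regions in all 4 lists, the difference was 0.265 for HNF4 (−1.76 and 0.738 in the other arrangements), −0.609 for FOXA (1.03 and 0.998) and −2.08 for C/EBP (−1.7 and 6.01). On the whole-list scale HNF4 gave 0.663 next to −1.09 and 0.592. In size, HNF4 and FOXA did not exceed 0.738 and 0.998 among the shared regions (exact permutation p = 1), and C/EBP did not exceed 6.01 (p = 0.667 by the same exact test).

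Location and base composition behaved likewise. Introns made up 42.5% of higher and 50.3% of lower regions in all 4 lists, a difference of −7.78 points against 6.9 and −0.23 (exact permutation p = 0.333). On the whole-list scale it was −2.83 against 6.31 and −1.27 (exact permutation p = 0.667). Promoters made up 18.3% and 14.7%, a difference of 3.57 that was within the −5.45 of another arrangement (exact permutation p = 0.667). The fifth of regions with the lowest GC content held 25.2% of higher and 15.4% of lower calls, and this difference of 9.81 points was exceeded by 14.8 in one of the other arrangements. Position was also read relative to the median of all compared regions. On the whole-list scale promoters stood 23.3 and 20.9 points higher at 72 h and 22.7 and 28.1 points higher at 96 h, with overlap, and the positions of introns were −6.2 and −5.65 in the 72 h libraries, against −6.64 and −11.6 in the 96 h libraries, without overlap. Among regions in all 4 lists neither class overlapped, with promoters at 22.3 and 22.2 against 22.8 and 25.4 and introns at −7.2 and −7.53 against −7.83 and −8.26. The mean differences there were 1.85 for promoters (−1.29 and 1.4 in the other arrangements) and −0.68 for introns (0.378 and −0.049), each with the smallest possible exact permutation p of 0.333.

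**Figure D5:**
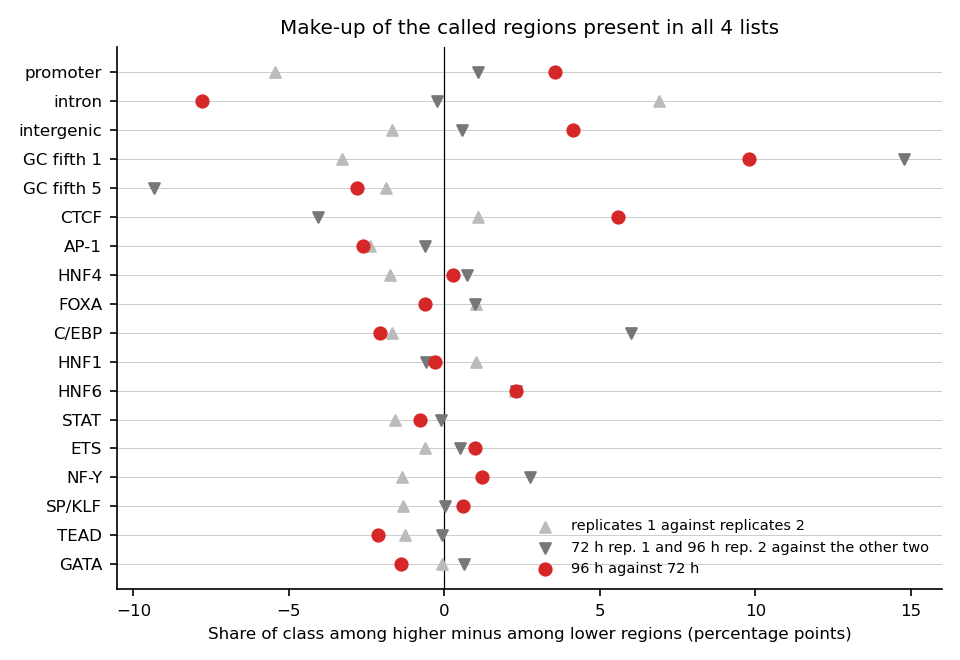
Share of a class among regions higher minus its share among regions lower (x axis, percentage points) for regions in all 4 lists, with 96 h against 72 h as red circles and the other ways of pairing the libraries as grey triangles. The red points for CTCF (5.6) and introns (−7.78) lie outside their grey points, and that for HNF6 (2.32) coincides with them.

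Libraries from 0 h and 48 h, which took no part in the calls, were then read at the called regions. Among regions in all 4 lists, the median percentile of those higher and those lower at 96 h was 63.6 and 64.6 in 0 h replicate 1 and 56.6 and 55.8 in 0 h replicate 2. For 48 h they were 57.7 and 63.6 in replicate 1, and 66.2 and 67.6 in replicate 2. Higher minus lower was thus −1.07 and 0.753 points in the 0 h libraries, and for 48 h it was −5.92 and −1.43. The other arrangements gave differences from −0.152 to 4.6 at 0 h and from −4.59 to 2.37 at 48 h. Among these shared regions both 48 h libraries were lower in those higher at 96 h, and only replicate 1 lay outside the other arrangements. At 0 h both replicates lay below the other arrangements of the same library (3.71 and −0.152 for replicate 1, 4.6 and 4.51 for replicate 2). On the whole-list scale higher minus lower was 0 in 48 h replicate 1. In 48 h replicate 2 it was −14, against 0 and −21.1 in the other arrangements.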

How the data were processed

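Peak lists of 8 bulk ATAC-Seq libraries (2 at each of 4 time points) were used, and the 4 from 72 h and 96 h were compared. The authors ran the ENCODE pipeline: reads were trimmed, mapped to mm10 with Bowtie2 and freed of PCR duplicates, and MACS2 called peaks in each library without pooling. Tool versions are not given in the sources used here. The deposited lists give for each peak its −log10 p, its −log10 q and a ratio, the fold enrichment over background (p threshold 0.01). The authors' read counts were not used here, so depth is unknown and no interval was computed. The lowest −log10 p of a list lay between 2.00031 and 2.00077.

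Lines of one interval were collapsed, keeping their maximum −log10 p, on the autosomes and sex chromosomes, and percentiles were averaged over ties. Regions were merged with at least 1 bp of overlap. Genes were taken from GENCODE M21 and bases from GRCm38.p6, on which 0 intervals passed a chromosome end. A promoter was a merged region within 1 kb of any start site of a coding gene, the strongest per list. Windows with exon bases outside coding sequence, or on chromosome 18, were not printed. The exact permutation test took the 3 ways of forming 2 against 2. The study's model of read counts could not be run on peak lists.

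Named were the 6 distal regions and 8 promoters of each direction with the widest gap, the 5 genes of each direction with the most called regions (fewest of the other direction first), every listed gene called and the cell type markers. The members, lists and tests were chosen with earlier results of these data known. The 20 lists were hepatocyte markers, pericentral, periportal and urea cycle, fatty acid oxidation, sterol and fatty acid synthesis, bile acid and acute phase genes, hepatocyte transcription factors, replication and mitosis genes, cell cycle inhibitors and p53 genes, immediate early and AP-1, TGF-beta and activin, fetal and progenitor and circadian clock genes, and markers of Kupffer, endothelial, stellate, cholangiocyte and lymphocyte cells. Alternatives were gaps of 5 and 20 points, fold enrichment, regions in all 4 lists, the 50000 strongest intervals, −log10 q of at least 2, 50% cover, 200 bp summit windows, a start site window of 500 bp, the replicate block and leaving out each library. Percentiles among promoters, single intervals at promoters, leading regions in all 4 lists and class shares were added after seeing the data. Scripts ran in Python 3.11.15 with numpy 2.4.6, pandas 2.3.3 and scipy 1.17.1, and were tested on simulated data. Some members of the lists are counted but not reported here by name.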

Additional observations from a re-analysis of the deposited data

How the results depend on the processing

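The total for the time points exceeded both other arrangements of the 4 libraries under none of the 9 settings in which all 3 were compared (exact permutation p from 0.667 to 1). The replicate block and leaving out libraries were not among them. Gaps of 5 and 20 points gave 6413 and 1811 regions higher, 15513 and 5009 lower and 21926 and 6820 in all. Regions in all 4 lists gave 2733 lower and 5458 in all, the 50000 strongest intervals 3002 and 5686, and −log10 q of at least 2 gave 2580 higher. Leaving out each library in turn gave 8893 to 14023 higher, 16557 to 31922 lower and 28148 to 42861 in all. These rise because fewer libraries have to be passed, and leave no check between replicates at the reduced time point. Without 72 h replicate 2, whose name lacks the lane tag, there were 11031 higher and 17117 lower, and without 96 h replicate 2, the weakest list, 14023 and 16557.

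Replicate numbers did not pair the libraries: the replicate differences at 72 h and 96 h correlated at −0.0086 over regions. With the replicate block there were 5712 higher and 13369 lower, and with the block among regions in all 4 lists 4706 lower and 9368 in all.

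The intron, HNF4 and FOXA differences in median position relative to all regions (−3.17, 1.57 and 0.521) were −0.68, 0.028 and 1.22 among regions in all 4 lists. Leaving out each library gave −5.63 to −0.714, 0.329 to 2.8 and −0.00943 to 1.05. The C/EBP difference of 0.911 turned to −0.546 among regions in all 4 lists and ran from −0.481 to 2.3 without each library. The promoter difference of 3.29 ran from 0.6 to 5.98. Listed promoters lower at 96 h numbered 3 with a window of 500 bp and 0 with percentiles among promoters, and 4 were higher by fold enrichment. Leaving out each library gave 8 to 19 higher and 9 to 19 lower. The 12 leading distal regions and the 23 named or listed promoters called were recomputed by fold enrichment and without each library. All 35 kept their direction, which is mostly no check. A call has both libraries of a time point beyond both of the other, so leaving out any library cannot turn it. By fold enrichment the direction was also fixed for features absent from both lists of a time point, among them the 12 distal regions. By fold enrichment 34 kept their call and Tk1 did not. The mean difference moved by over 1.5 times for Junb (39.3 to 13.3), Tk1 (31.4 to 10.1), Lrg1 (−54.1 to −16.8), Dvl2 (44.1 to 26.5) and the Atl2 region (−67.1 to −34.7). Without 96 h replicate 1 it was −17.5 for Saa3 (from −26.7), −53.6 for Dlk1 (from −34) and −21.1 for Igf2bp3 (from −32.5), and without 96 h replicate 2 it was −14.5 for Dlk1. The regions in all 4 lists and Cdc45 were not recomputed. The lists hold no counts, so depth limits how far an absent peak can be read as closed.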

Other observations

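Circadian clock genes, which no comparison above named, were all listed in the 4 libraries, with median promoter percentiles of 87.7 and 85.5 at 72 h and 85.8 and 92.9 at 96 h. Arntl, which encodes the activator BMAL1, stood at 93.3 and 95.3 at 72 h and at 97 and 96.2 at 96 h. Dbp, an output gene of the clock, stood at 71.7 and 68.5 and then at 63.2 and 65.6. Of the 16 genes 2 were higher and 2 lower without overlap, near the 14.1% and 15.7% of all promoters, and 0 reached a gap of 10 points. In the list of TGF-beta and activin genes Inhbe, an activin subunit made by hepatocytes, was at 91.6 and 84.2 at 72 h and at 77.4 and 77.6 at 96 h, lower without overlap and within the gap. In the sterol and fatty acid synthesis list Acaca, the gene of acetyl-CoA carboxylase, was at 48.2 and 52 and then at 63.3 and 61.6, and Me1, malic enzyme, at 83.1 and 88.6 and then at 92.4 and 91.9.

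Regions on the X chromosome made up 2.66% of those higher and 1.86% of those lower at 96 h, against 1.9% of all compared regions. The difference of 0.801 points was smaller than the −1.94 and 0.934 of the other ways of pairing the libraries. The shortest of 4 equal groups of regions by length held 43.8% of higher and 38.6% of lower calls, against 24.9% of all.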
